A study of Homo sapiens with 10 samples.

Results

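The RGS genes encode regulators of G-protein signalling, and 10 of them were followed here through RNA-seq of merbarone-treated cells. They are RGS2, RGS3, RGS4, RGS5, RGS7, RGS10, RGS12, RGS16, RGS17 and RGS20, taken by gene symbol from the 20327 genes of the deposited tables. The family was chosen by the 2 h values, in which RGS4 had the largest fall of any tested gene on the log2(RPKM + 1) scale. The 2 h values of the members are therefore given below as a description, with no p-value, and counts of members past a threshold at 2 h are no test of the family. The 30 min comparison played no part in that choice and was tested. In all, 21 genes with a numbered RGS symbol were in the tables, and the other 11 are counted among the pathway genes.

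RGS proteins carry a domain of about the same fold that binds the active, GTP-bound alpha subunit of a heterotrimeric G protein and speeds up its hydrolysis of GTP. They thereby shorten the signal that a G-protein-coupled receptor sends to effectors such as adenylyl cyclase and phospholipase C-beta. Subfamilies differ in the subunits they act on and in the domains around the RGS domain, and several members are themselves products of genes that respond quickly to stimuli. In the retina the family is best known through RGS9, which ends the light response of photoreceptors.

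The cells were hTERT RPE-1, an established human line derived from retinal pigment epithelium and immortalised with telomerase, labelled wild type in every group. All cells had been starved for 48 h in medium with 0.1% serum. Merbarone, a catalytic inhibitor of DNA topoisomerase II, was given at 200 µM. The 30 min experiment had 3 libraries of cells given merbarone for 30 min and 3 of cells given the vehicle DMSO for 30 min. The 2 h experiment had 2 libraries of cells given merbarone for 2 h and 2 of untreated cells, so its control had received no vehicle. Polyadenylated RNA was sequenced from stranded libraries. The labels do not say whether replicates came from separate cultures, so a p-value measures the spread between these libraries, which may be technical.

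Levels are in RPKM, reads per kilobase of gene, scaled to the depth of the library. For most genes the length behind the deposited values was the whole gene with its introns, so a gene with long introns has a low RPKM. Reads were recovered exactly from the steps between RPKM values, and implied depths were 26644379 to 38240706 reads in the 30 min experiment and 11962092 to 13696974 in the 2 h experiment. Of 14 marker genes of retinal pigment epithelium, 10 averaged 10 or more reads. Among them were BEST1, PMEL, OTX2 and MITF, but also RLBP1 and TYRP1, with at most 22 and 27 reads in a library. RPE65, TYR and TTR averaged fewer, with at most 19, 14 and 2 reads, and DCT was at 0 in every library. The summed level of the 14 was 26.5 to 33.5 RPKM in the 30 min experiment and 90.4 to 105 RPKM in the 2 h experiment. KRT18 was a large part of that sum, at 14.1 to 69.4 RPKM over the 10 libraries. The 2 experiments thus differed before any treatment was compared, and each treatment was set against its own control. Libraries numbered 1 stood apart from those numbered 2 and 3 in both groups of the 30 min experiment, and values without them are given where they bear on a member.

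The member genes lie on 6 chromosomes, and 5 of them are on chromosome 1 (GRCh37). RGS4 spans chr1:163038565-163046592 on the plus strand and RGS5 lies next to it at chr1:163080911-163291581 on the minus strand. RGS2 spans chr1:192778169-192781405 on the plus strand, RGS16 spans chr1:182567758-182573524 on the minus strand, and RGS7 spans chr1:240930936-241520674 on the minus strand. RGS3 lies at chr9:116207011-116360023, RGS10 at chr10:121259329-121302231, RGS12 at chr4:3294748-3441640 and RGS17 at chr6:153325594-153452417. RGS20 is on the sixth. RGS2, RGS16 and RGS4 are compact genes of 3.24, 5.77 and 8.03 kb, whereas the other 7 members span 42.9 to 589.7 kb. RGS5 overlaps NUF2, a kinetochore gene with 440 to 2095 reads per library. Whether the authors' reads were counted by strand is not given in the sources used here, so the RGS5 values are uncertain. RGS7, with at most 105 reads in a library, overlaps 8 other annotated genes that were not in the tables and is uncertain for the same reason. The same limit applies to RGS20, which overlaps 3 such genes, and to RGS12, which overlaps 2. It also applies to RGS2, RGS3 and RGS17, which overlap 1 each. RGS4, RGS10 and RGS16 overlap no other annotated gene.

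The promoters of RGS4 and RGS2 are shown because these genes had the 2 largest differences of the family at 2 h, in opposite directions. Each sequence holds the 250 bases before an annotated start, from RefSeq's table on GRCh38.p14, plus strand. RGS4 has 4 starts in that table, and the one shown was chosen as the only one of the 4 with a TATA box. Its TATA box therefore cannot be set against the share over all promoters. Capitals mark exact matches to a set of 9 motifs searched on both strands. Promoters 1 and 4 of RGS4, in the order listed, held none of these motifs. Which start is used in these cells was not tested.
RGS4, chr1:163069111-163069360: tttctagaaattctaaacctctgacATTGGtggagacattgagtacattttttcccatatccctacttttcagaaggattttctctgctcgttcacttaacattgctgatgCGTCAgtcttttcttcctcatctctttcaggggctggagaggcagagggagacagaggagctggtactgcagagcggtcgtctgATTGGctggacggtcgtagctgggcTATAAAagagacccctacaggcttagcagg
RGS2, chr1:192808789-192809038: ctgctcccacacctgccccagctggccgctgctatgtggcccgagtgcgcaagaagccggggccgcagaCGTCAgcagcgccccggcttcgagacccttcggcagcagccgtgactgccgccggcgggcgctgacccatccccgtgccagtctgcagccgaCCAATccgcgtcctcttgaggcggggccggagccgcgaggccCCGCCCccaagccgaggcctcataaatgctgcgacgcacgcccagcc
In the RGS4 promoter the capitals are, in order, a CCAAT box on the minus strand, a cyclic AMP response element half-site on the minus strand (TGACG), a second CCAAT box on the minus strand and a TATA box (TATAAA) whose first base lies 30 bases before the start. In the RGS2 promoter they are a half-site on the minus strand, a CCAAT box on the plus strand and a GC box on the minus strand (GGGCGG) that begins 47 bases before the start. The G and C content was 47.6% in the RGS4 sequence and 72.8% in that of RGS2. Over 35116 promoters of the same length in the table, TATAAA was present in 10.7%, TGACG in 21.2%, CCAAT in 32.0% and GGGCGG in 42.6%. The full response element TGACGTCA, which contains the half-site, was present in 1.65% of promoters, the AP-1 site TGANTCA in 6.57%, the EGR site GCGNGGGCG in 8.41%, the CArG box in 1.16% and TGATGNAA, the composite site bound by ATF4, in 3.14%. None of these 5 motifs was in either sequence. These matches describe the letters only, since no binding was measured.

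RGS4 was by far the most abundant member in these cells. It acts on Gi and Gq subunits and belongs to the R4 subfamily of small RGS proteins. Its level was 98.7, 60.8 and 63.3 RPKM in the DMSO libraries and 101.9 and 86.5 RPKM in the untreated ones, with means of 74.3 ± 21.2 (SD, n = 3) and 94.2 ± 10.9 (SD, n = 2). The next member, RGS3, had 0.753 ± 0.041 RPKM in DMSO cells (SD, n = 3). Part of that distance reflects gene length, since RPKM is per kilobase of whole gene, and exons make up 58.9% of RGS4 but 8.60% of RGS3. Counted per kilobase of summed exon with the same scaling for depth, RGS4 stood at 126 in DMSO cells and 160 in untreated cells, and RGS10 was next at 23.6 and 23.5. All reads behind a gene's RPKM value were counted there, so reads from introns or overlapping genes may be included. Such reads can raise the measure in genes with a small exon share, such as RGS10 at 2.97%. The order on this scale is therefore uncertain.

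On the exon scale, the order in DMSO cells after RGS4 and RGS10 was RGS3 at 8.76, RGS20 at 8.43, RGS5 at 3.91, RGS12 at 2.91, RGS17 at 2.10, RGS2 at 1.16, RGS7 at 0.101 and RGS16 at 0.0045. The libraries of RGS3 and RGS20, of RGS12 and RGS17, and of RGS17 and RGS2 overlapped, so the order within each pair was not resolved. In untreated cells the order was the same except that RGS2 at 1.05 stood before RGS17 at 0.980, and their libraries overlapped. On the whole-gene scale the order after RGS4 in DMSO cells was RGS3, RGS2, RGS10, RGS12, RGS20, RGS17, RGS5, RGS7 and RGS16. There, the libraries of RGS3 and RGS2, of RGS2 and RGS10, of RGS12 and RGS20, of RGS17 and RGS5, and of RGS7 and RGS16 overlapped. In untreated cells the whole-gene order was RGS3, RGS10, RGS2, RGS12, RGS20, RGS5, RGS17, RGS7 and RGS16 after RGS4, and only RGS10 and RGS2 overlapped. RGS2 changed its place most between the scales, because 64.5% of its short gene is exon.

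**Figure D1:**
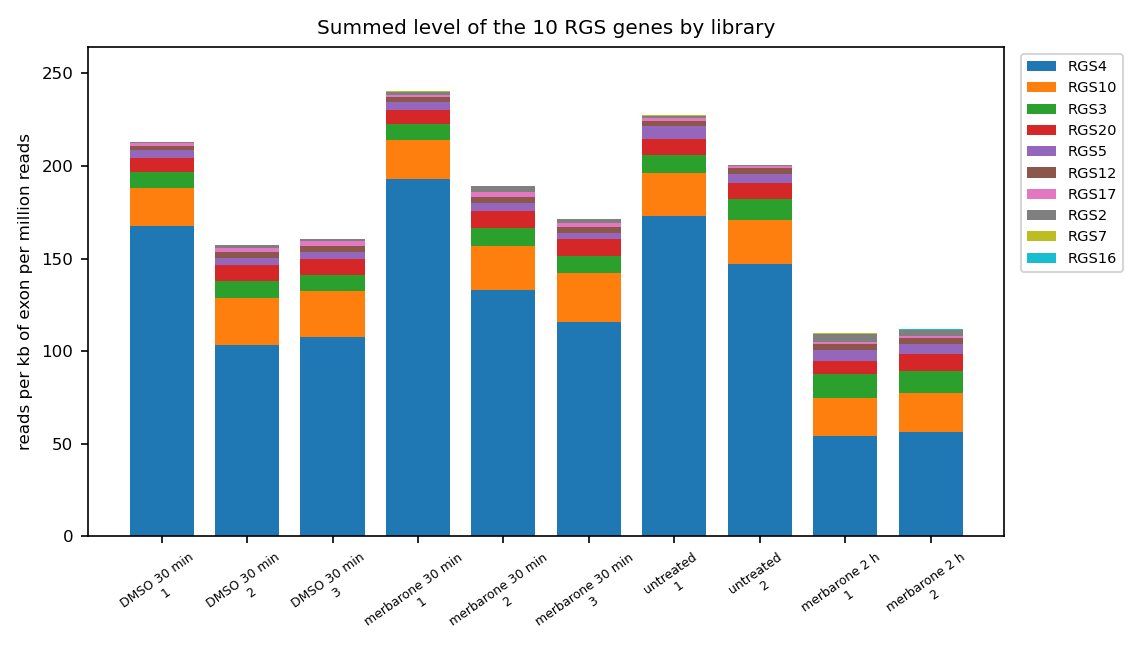
Reads per kilobase of summed exon, scaled to library depth (y axis), of the 10 RGS genes, stacked for each of the 10 libraries (x axis, group and replicate). All recovered reads of a gene are counted, so reads from introns may be included. The RGS4 part is the largest in every library and is shortest in the 2 libraries given merbarone for 2 h.

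RGS4 reads were 64.0% to 79.0% of all reads of the 10 members in the 30 min experiment. The untreated libraries had 73.7% and 70.4%, against 44.1% and 46.2% after 2 h of merbarone. The plot of stacked levels shows the summed level of the family lower in these last 2 libraries than in the other 8, with the RGS4 part accounting for most of the distance. This sum follows from RGS4, whose fall chose the family.

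After 30 min of merbarone, no member passed the test. Only RGS2 and RGS4 averaged 1 RPKM or more and so entered the limma fit on log2(RPKM + 1), which called neither of these 2. That fit called 0.0154% of the 6500 genes tested, that is 1 gene. Of the 10 members, 9 entered limma's voom fit on recovered reads, which takes genes averaging 10 or more reads and called 0 of the 9. It called 0.00713% of 14016 genes, again 1 gene. RGS16 entered neither fit, with 1 read in DMSO library 2, 2 reads in the second library given merbarone for 2 h and 0 reads in the other 8 libraries.

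RGS2, an R4 member that acts on Gq and is known as a fast-responding gene, had the largest difference of the family at 30 min. Its level was 0.522, 0.866 and 0.849 RPKM in DMSO libraries 1 to 3 and 1.04, 2.06 and 1.16 RPKM in the merbarone libraries. All 3 merbarone libraries lay above all 3 DMSO libraries, and the merbarone library was 1.99, 2.38 and 1.37 times the DMSO library of the same number. The groups of 2.4% of genes averaging 10 or more reads did not overlap in this comparison, and RGS2 was the only one of the 9 members among them. RGS2 entered the limma fit only through the merbarone group, with means of 0.746 ± 0.194 RPKM in DMSO and 1.42 ± 0.558 RPKM in merbarone libraries (SD, n = 3 each), so its limma value, a log2 fold change of 0.45 (SE 0.17), is given without a p-value. On recovered reads both groups passed the filter, with 45 to 105 reads in DMSO and 113 to 250 in merbarone libraries. There the log2 fold change was 0.88 (95% interval 0.08 to 1.68) with a raw p of 0.0355 and an adjusted p of 1.00 by voom. With the replicate number as a block, which called 0.123% of all genes (0.0928% by voom), the adjusted p by voom was 0.460. The blocked log2 fold change by voom was 0.90 (95% interval 0.47 to 1.34), with a raw p of 0.00106. Without libraries 1 of both groups, the limma log2 fold change of RGS2 was 0.47 (SE 0.17).

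At 30 min the difference of RGS4 was small against the spread within its groups, though not against the spread between same-numbered pairs. It passed the adjusted threshold on neither reading. Its level was 113.6, 78.5 and 68.0 RPKM in the merbarone libraries against 98.7, 60.8 and 63.3 RPKM in the DMSO libraries. Libraries numbered 1 were highest in both groups, and the groups overlapped. Each merbarone library was above the DMSO library of its number, by 1.15, 1.29 and 1.07 times. RGS4, RGS2 and RGS3 were higher in all 3 such pairs and RGS12 was lower in all 3, so 4 of 9 members had the 3 pairs on one side, against 23.2% of genes averaging 10 or more reads. The log2 fold change of RGS4 was 0.22 (SE 0.25, 95% interval -0.39 to 0.83), with a raw p of 0.411 and an adjusted p of 1.00 by limma. With the replicate block its standard error was 0.06, its raw p 0.0102 and its adjusted p 1.00. By voom 1 of the 9 tested members, RGS2, had a raw p under 0.05, as did 0.293% of all genes, and with the block RGS2 and RGS4 did, as did 3.05% of all genes. Without libraries 1 of both groups, RGS4 had a log2 fold change of 0.23 (SE 0.09).

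**Figure D2:**
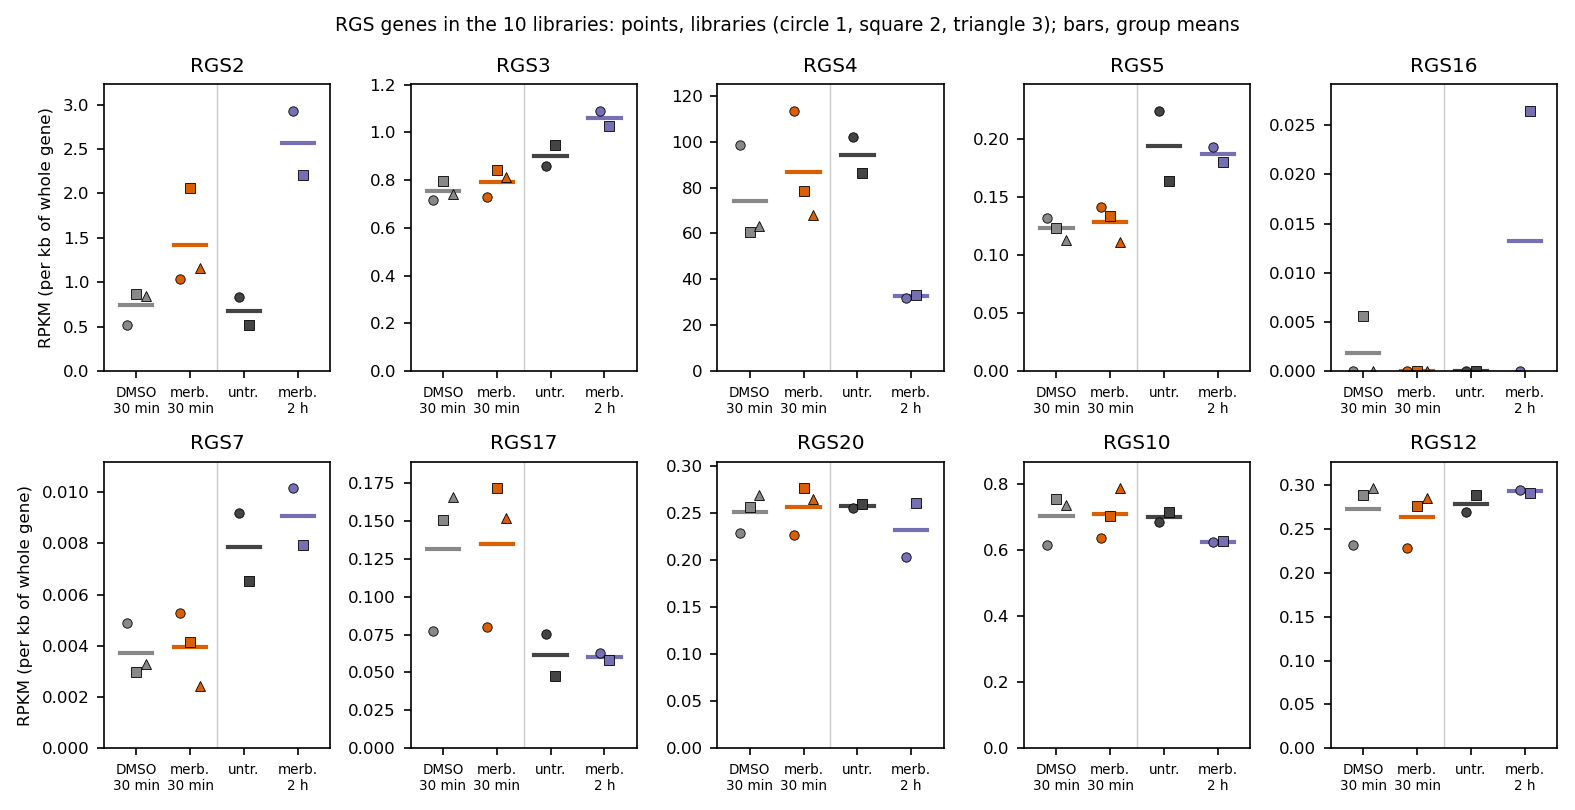
RPKM (y axis, per kilobase of whole gene, a separate linear scale for each gene) of the 10 RGS genes in 4 groups (x axis), with each library as a point and each group mean as a bar; the vertical line parts the 2 experiments. RGS4 at 2 h lies at 31.8 and 33.3 RPKM, below all other libraries, and RGS2 at 2 h lies at 2.93 and 2.20 RPKM, above all other libraries.

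The other members tested at 30 min had log2 fold changes between -0.05 and 0.07 by voom, with intervals that differ in width. The intervals were -0.11 to 0.26 for RGS3, -0.20 to 0.34 for RGS5, -0.27 to 0.28 for RGS10, -0.36 to 0.25 for RGS12 and -0.23 to 0.27 for RGS20. They were -0.73 to 0.86 for RGS7 and -0.87 to 0.89 for RGS17. With the replicate block in voom the intervals were narrower. They were -0.02 to 0.17 for RGS3, -0.06 to 0.19 for RGS5, -0.12 to 0.15 for RGS10 and -0.16 to 0.06 for RGS12. For RGS20 the blocked interval was -0.10 to 0.16, for RGS7 -0.33 to 0.47 and for RGS17 -0.18 to 0.24. The adjusted p was 1.00 for each of these 7.

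RGS17 shows how much library number mattered. This RZ member, known for its action on Gz and other Gi-class subunits, stood at 0.0776, 0.151 and 0.165 RPKM in the DMSO libraries and at 0.0799, 0.172 and 0.152 RPKM in the merbarone libraries. Both libraries numbered 1 were below the other 4. RGS4 had the opposite pattern, with libraries numbered 1 at 1.33 and 1.31 times their group means. With those libraries left out, the log2 fold change of RGS17 was 0.03 (SE 0.11) by voom, against 0.01 (SE 0.37) with all.

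After 2 h of merbarone, RGS4 was 2.90-fold lower and RGS2 3.80-fold higher than in untreated cells, as ratios of mean RPKM. The limma fit called 13.1% of 6620 genes at 2 h (5.98% higher and 7.1% lower), and the 2 members that met its filter were among them, RGS2 through the treated group alone. The voom fit called 13.9% of 13445 genes, and RGS4 and RGS2 were the 2 of 9 members among them. Since the 2 h fall of RGS4 chose the family, nothing is read from these counts. In 58.1% of genes averaging 10 or more reads the 2 h libraries did not overlap the untreated ones, and this held for 5 of 9 members, RGS2, RGS3, RGS4, RGS10 and RGS12.

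RGS4 had 31.8 and 33.3 RPKM in the 2 libraries given merbarone for 2 h, against 101.9 and 86.5 RPKM in the untreated libraries. The 2 treated libraries lay close together, at 3494 and 3487 reads, and far below both controls, at 10902 and 8309 reads. The log2 fold change was -1.50 (SE 0.12) by limma and -1.53 (SE 0.10) by voom. It was the first of the falls on the log2(RPKM + 1) scale, followed by HTR1B at -1.19 and IFIT2 at -1.10. On scales without the added 1 RPKM the fall of HTR1B was larger, at 3.64-fold by ratio of means and -1.84 by voom. Fewer cells that express a gene and less RNA per cell cannot be told apart in these bulk libraries.

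RGS2 had 0.835 and 0.517 RPKM in the untreated libraries and 2.93 and 2.20 RPKM after 2 h of merbarone. The groups were well apart, though the values rest on 36 and 20 reads against 130 and 93. The log2 fold change was 1.09 (SE 0.12) by limma and 1.92 (SE 0.29) by voom, and the first is smaller because the added 1 RPKM is of the size of the gene's own level. RGS2 was number 57 among the 396 rises by limma, a set it entered through the treated group alone, so nothing is read from that rank. At 2 h RGS4 and RGS2, both R4 members, thus moved in opposite directions.

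**Figure D3:**
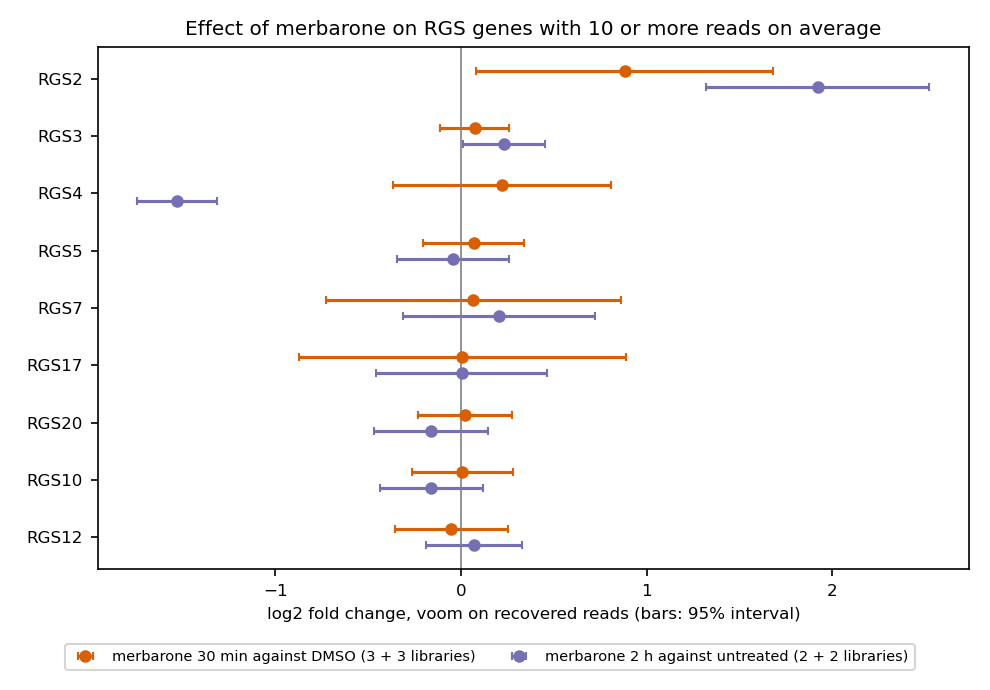
Log2 fold change (x axis, voom on recovered reads) of 9 RGS genes (y axis) for merbarone at 30 min against DMSO and at 2 h against untreated cells, with points for estimates and bars for 95% intervals. At 2 h RGS4 lies at -1.53 and RGS2 at 1.92, and the other 7 genes lie between -0.16 and 0.23.

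RGS3, another R4 member, occurs in several isoforms, the longer ones with domains outside the RGS domain. It had 0.858 and 0.948 RPKM in untreated cells and 1.09 and 1.03 RPKM after 2 h of merbarone. The groups did not overlap, with a log2 fold change of 0.23 (95% interval 0.01 to 0.45) by voom. RGS5, an R4 member known from pericytes, had 0.224 and 0.163 RPKM in untreated and 0.193 and 0.180 RPKM in treated cells, so its treated libraries lay between its controls.

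Among the larger and less related members, the 2 h values stayed near the controls. RGS10, a small R12 member that acts on Gi subunits, had 0.682 and 0.714 RPKM in untreated cells and 0.623 and 0.626 RPKM in treated ones, with a log2 fold change of -0.16 (95% interval -0.44 to 0.12). RGS12, the large R12 member with PDZ and Ras-binding domains, had 0.269 and 0.289 RPKM in untreated and 0.295 and 0.291 RPKM in treated cells (log2 fold change 0.07, 95% interval -0.19 to 0.33). The treated libraries of RGS10 were below both controls and those of RGS12 above, by margins smaller than the intervals.

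RGS20 (GRCh37 chr8:54764355-54871863, plus strand) is the other RZ member. It had 0.255 and 0.260 RPKM in untreated and 0.204 and 0.261 RPKM in treated cells, and its groups overlapped. RGS17 had 0.0751 and 0.0475 RPKM in untreated and 0.0628 and 0.0580 RPKM in treated cells. RGS7, which pairs with the Gbeta5 subunit, had 0.00917 and 0.00653 RPKM in untreated and 0.0102 and 0.00794 RPKM in treated cells, from 46 to 82 reads. The intervals by voom were -0.47 to 0.14 for RGS20, -0.46 to 0.46 for RGS17, -0.31 to 0.72 for RGS7 and -0.34 to 0.26 for RGS5. Both members with a large 2 h difference are compact genes, and the 7 members of 42.9 kb or more had the small ones. RGS16, also compact, had too few reads to compare. The fall of RGS4 chose the family, and a link to gene length was not tested.

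The effect of merbarone on RGS4 was 1.72 lower at 2 h than at 30 min on the log2 scale (difference -1.72, SE 0.34), and that on RGS2 was 0.64 higher (SE 0.25). By voom these differences were -1.75 (SE 0.33) and 1.04 (SE 0.59). The counts of members past the threshold were 1 of 2 by limma (1.63% of 6558 genes), 0 of 9 by voom (0.475% of 13904 genes) and 2 with the replicate block in limma (19.1%) and in voom (15.9%), and nothing is read from them. The contrast includes the 2 h values and is given as a description, and in it time, kind of control and experiment cannot be told apart.

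The genes whose values followed RGS4 most closely were found by Pearson's correlation of log2(RPKM + 1) over the 10 libraries, after each experiment had been centred. Among 6166 genes they were LRRC42 (r = 0.987), DNAJA1 (0.977), COA4 (0.976), HTR1B (0.975) and WSB2 (0.971). The libraries share treatment, depth and library number, so these values are a description. HTR1B, a serotonin receptor that couples to Gi, had 1.61, 0.866 and 1.00 RPKM in the DMSO libraries and 2.06, 1.02 and 0.666 RPKM in the merbarone libraries at 30 min. As with RGS4, the libraries numbered 1 were the highest in both groups.

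The wider pathway was described through 10 lists with 139 genes, of which 138 were in the tables. At 30 min, 0 of 38 tested pathway genes passed the limma test and 0 of 96 passed the voom test, and in both fits 0 had a raw p under 0.05. At 2 h, 4 of 38 passed by limma (1 higher, 3 lower), against 13.1% of all genes tested. The median log2 fold change of the 38 was -0.08, against -0.05 over all genes. By voom 11 of 90 passed (6 higher, 5 lower), against 13.9% of genes (7.89% higher, 6.05% lower). In limma 13 passed without untreated library 1 and 8 without untreated library 2, in fits that called 37.2% and 19.7% of all genes. The replicate block, which called 32.2% of all genes in limma and 25.8% in voom, gave 10 and 24 pathway genes.

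The 4 pathway genes called by limma were 2 receptors and 2 subunits of the Gbeta-gamma dimer. HTR1B fell from 3.84 and 3.03 RPKM in untreated cells to 0.994 and 0.894 RPKM, a log2 fold change of -1.19 (SE 0.10) by limma. Its treated mean was 0.944 RPKM, so HTR1B met the limma filter through the untreated group alone, and its limma p-value is not given. The voom fit on recovered reads also called HTR1B, at a log2 fold change of -1.84. ACKR3, an atypical receptor that takes up the chemokine CXCL12, rose from 2.54 and 2.58 to 4.17 and 4.61 RPKM, a log2 fold change of 0.60 (SE 0.08, adjusted p = 0.00271 by limma). GNG11, a gamma subunit, fell from 13.9 and 13.5 to 9.63 and 9.55 RPKM, a log2 fold change of -0.48 (SE 0.09, adjusted p = 0.0139 by limma). GNB3, a beta subunit, fell from 4.29 and 4.30 to 2.63 and 2.74 RPKM, a log2 fold change of -0.52 (SE 0.08, adjusted p = 0.00427 by limma). GNB3 overlaps the cell-cycle gene CDCA3, which went from 14.2 and 13.7 to 9.66 and 9.84 RPKM, so the GNB3 value is uncertain. The limma call of GNG11 was lost without either treated library (adjusted p = 0.121 and 0.116). All 4 calls were lost with no filter on low RPKM (adjusted p of 0.0779 to 0.0819 by limma), and that of GNB3 also in a limma fit over all 10 libraries (adjusted p = 0.439).

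**Figure D4:**
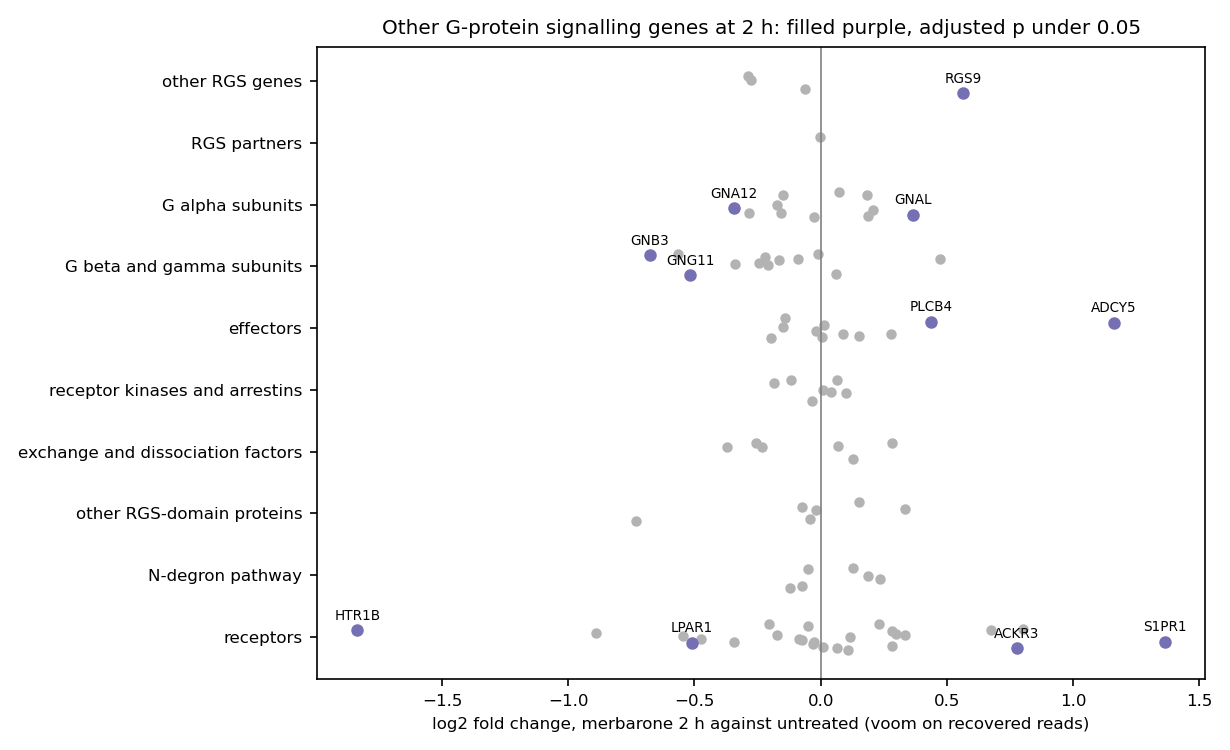
Log2 fold change at 2 h (x axis, voom on recovered reads) of 90 other G-protein signalling genes in 10 lists (y axis, points spread vertically for legibility). The 11 named purple points passed at an adjusted p under 0.05, and HTR1B at -1.84 and S1PR1 at 1.36 are the outermost.

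By voom 7 further genes passed at 2 h. S1PR1, a receptor for sphingosine 1-phosphate, went from 0.373 and 0.235 to 0.741 and 0.828 RPKM (log2 fold change 1.36, adjusted p = 0.00907 by voom), with 13 to 50 reads per library. LPAR1, a receptor for lysophosphatidic acid, went from 1.08 and 0.925 to 0.667 and 0.738 RPKM (log2 fold change -0.51, adjusted p = 0.00442 by voom). The adenylyl cyclase ADCY5 rose by 1.16 on the log2 scale, with 10 to 36 reads per library, and the phospholipase PLCB4 by 0.44. Among alpha subunits GNAL rose by 0.36 and GNA12 fell by 0.35, and both overlap other genes in the tables. The call by voom held for S1PR1 without each of the 4 libraries in turn. It was lost for LPAR1 without the first treated library, for PLCB4, GNAL and GNA12 without either treated library, and for ADCY5 without the first untreated or the first treated library.

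Of the 12 other RGS genes, RGS9, RGS11, RGS14 and RGS19 averaged 10 or more reads, and RGS1, RGS8 and RGS21 had 0 reads in all 10 libraries. RGS9 was the one of these 4 called at 2 h by voom. It had 0.101 and 0.0991 RPKM in untreated and 0.150 and 0.146 RPKM in treated cells, a log2 fold change of 0.56 (SE 0.17, adjusted p = 0.0359 by voom). The call was lost without either treated library, at adjusted p = 0.308 and 0.201 by voom. Of 6 photoreceptor markers, 2 averaged 10 or more reads (NRL and ARR3), and CRX and RCVRN were at 0 in every library. The summed level of the 6 was 0.400 to 0.514 RPKM in the 30 min experiment, 0.560 to 0.781 RPKM in untreated cells and 1.37 to 2.00 RPKM after 2 h of merbarone. Its part in the RGS9 result was not tested. The limma fit tested RGS11 and RGS19 and called neither.

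At a background of 13.9% by voom, a count of 0 among a few genes is no result about a list. The lists with 0 called genes at 2 h in limma and in voom were the receptor kinases and arrestins (7 genes tested by voom), the exchange and dissociation factors (6), the other proteins with an RGS domain (6), the partners of RGS proteins (1) and the N-degron pathway (6). The last removes RGS4, RGS5 and RGS16 proteins, whose second residue is a cysteine, and its 6 tested genes had log2 fold changes of -0.12 to 0.23 by voom. With the replicate block voom called GPSM2 and RIC8A of the exchange and dissociation factors and AKAP10 and AXIN2 of the RGS-domain proteins. Protein levels were not measured.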

How the data were processed

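RNA-seq of 10 hTERT RPE-1 libraries was used. The authors deposited a separate table for each library. Its values are RPKM and its rows Ensembl genes, per the file headers. Per the submitters' processing notes, Bowtie 1.2.0, DESeq2, edgeR and deepTools 2.4.1 were among the tools and hg19 (GRCh37) was the build, with no step given for each. The counter and the strand setting are not given in the sources used here. Symbols were matched by Ensembl identifier for 19637 of 20327 genes.

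RPKM values of a gene are whole multiples of what 1 read is worth, and reads were recovered for 17680 of 17680 genes with a value, within 0.001 of a whole number. Their sums differed from the implied depths by at most 0.0265%. The lengths implied were within 1% of the GRCh37 gene span for 75.4% of genes and of the summed exon length for 1.62%. Coordinates are from GENCODE on GRCh37.

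The main test was limma 3.58.1 (R 4.3.3, lmFit and eBayes with trend) on log2(RPKM + 1) for genes averaging 1 RPKM or more in the experiment, two-sided, with Benjamini-Hochberg adjustment over all genes tested and a threshold of 0.05. Limma's voom on recovered reads (mean of at least 10 reads) was run beside it and was the source for members below 1 RPKM. Fold changes on the log2(RPKM + 1) scale understate those of low genes. Both were checked on simulated data. Python 3.11.15, pandas 2.3.3 and matplotlib 3.10.9 were used.

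In the 30 min experiment the deviations of same-numbered libraries from their group means correlated at 0.925, 0.646 and 0.605, so the replicate numbers in the labels pair these libraries. Other settings were quantile normalization, a pseudocount of 0.1, no filter or one at 5 RPKM, median scaling, the replicate block, 1 fit over all libraries and leaving out each library. Voom fits that leave out a library, and fits without libraries 1 of the 30 min groups, were chosen after seeing the data. Replicates of a group were not copies of each other, with chi-square values per degree of freedom of 4.00 to 61.0. The members, the pathway and marker lists and the tests were chosen with earlier results of these data known. All members were named in each comparison, and of each pathway list every gene called, up to 4 per direction, with the 5 genes most like RGS4.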

Additional observations from a re-analysis of the deposited data

Results flagged for a closer look

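Merbarone had unlike effects on RGS4 in the 2 experiments, with a difference of -1.72 (2 h minus 30 min, log2(RPKM + 1) scale, SE 0.34). This difference includes the fall that chose the family, so it is a description and its passing of the limma threshold supports nothing. For ACKR3 the difference was 0.56 (SE 0.06) in limma, whose filter on low RPKM it passed only through the 2 h experiment. ACKR3 stood at 0.324 to 0.384 RPKM in the 6 libraries of the 30 min experiment and at 2.54 and 2.58 RPKM in the untreated libraries, so its level differed between the experiments before treatment. By voom the difference for ACKR3 was 0.62 (SE 0.15) and did not pass the threshold (adjusted p = 0.130). In both cases time, kind of control and experiment cannot be told apart.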

How the results depend on the processing

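No member passed at 30 min under any alternative, and none of the 100 alternative values of single members there crossed the threshold. Counts of members past the threshold at 2 h and for the difference are no test of the family, which the 2 h values chose. At 2 h the count fell from 2 to 0 with no filter on low RPKM and to 1 with a mean of at least 5 RPKM, which only RGS4 met. For the difference between experiments the count went from 1 to 0 with no filter, with median scaling and by voom on recovered reads. It was not the same in every fit with 1 library left out. In limma RGS4 was no longer called without DMSO library 2 or 3, without 30 min merbarone library 2, or without any 1 library of the 2 h experiment. The pathway count at 2 h went from 4 to 0 with no filter, to 1 at 5 RPKM and to 11 by voom, and lay at 3 to 25 when each library was left out in limma or voom. It was 13 without untreated library 1 and 8 without untreated library 2 in limma. In voom it was 25 and 18, in fits that called 30.5% and 17.7% of all genes, and 3 and 6 without the first and the second treated library, in fits that called 3.93% and 4.71%. The cause was not tested. With 1 library left in a group, that library is assumed to vary like the other group.

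With the replicate block, the count of members called for the difference was 2 in limma and 2 in voom, and the pathway count at 2 h was 10 in limma and 24 in voom. At 2 h same-numbered libraries correlated at 0.300 with only 2 pairs, so the numbers do not establish a pairing there. At 30 min the block changed no call of a member or pathway gene.

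Of 68 alternative values of members at 2 h, RGS5 came to 0.19 without untreated library 1, RGS17 to -0.31 without untreated library 2 and RGS20 to 0.02 without the first treated library. RGS3 came to 0.30, past the threshold, without untreated library 2 in voom. With 20 to 130 reads at 2 h in RGS2 and 46 to 82 in RGS7, depth limits what these genes can show.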

Other observations

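RGS17, RGS7, RGS5 and RGS3 had levels that set the experiments apart in all 10 libraries, whatever the treatment. The share of all genes with such levels was not counted, so nothing is read from these members. RGS17 stood at 0.0776 to 0.172 RPKM in the 6 libraries of the 30 min experiment and at 0.0475 to 0.0751 RPKM in the 4 of the 2 h experiment. RGS7 stood at 0.00242 to 0.00530 RPKM in the first and 0.00653 to 0.0102 RPKM in the second, and RGS5 at 0.111 to 0.141 and 0.163 to 0.224 RPKM. RGS3 had group means of 0.753 and 0.794 RPKM in the 30 min experiment and 0.903 and 1.06 RPKM in the 2 h experiment. RGS9, which is no member, was at 0.0354 to 0.0523 RPKM in the 30 min experiment and 0.0991 to 0.150 RPKM in the 2 h experiment. These genes were picked after their values were seen. Depth, control and experiment cannot be told apart here, and no test was made.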
